A study of Mus musculus with 9 samples.

Results

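Transcripts of 6 genes that make, package or break down monoamine neurotransmitters were followed in RNA from mouse hippocampal synaptoneurosomes, a preparation enriched in detached synaptic endings. The genes were Tph2, Th, Ddc, Slc18a2, Maoa and Maob. They were taken as the rows of the deposited table whose Ensembl identifiers map to these symbols, and all 6 were found among its 22255 rows. All 9 samples came from C57Bl/6J mice labelled Fmr1 KO, a model of fragile X syndrome, so the control group carries the knockout as well and no wild-type group was analysed here. The treated group, of samples A, B, C and E (n = 4), was given AM6545, which blocks the cannabinoid receptor CB1 and enters the brain poorly. The control group, of samples A to E (n = 5), was given vehicle. Age, sex, dose, route and length of treatment are not given in the sources used here. The title of the series names a serotonergic mechanism, and the comparison asks whether transcripts of the monoamine pathway differed after treatment.

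Serotonin is made from tryptophan and dopamine from tyrosine, in each case by a hydroxylase that needs tetrahydrobiopterin, followed by a shared decarboxylase. The amines are then pumped into synaptic vesicles, and after release and reuptake they are oxidised by monoamine oxidases on the outer mitochondrial membrane. In the hippocampus the serotonergic and noradrenergic fibres are axons of neurons in the brainstem. The cell bodies, which hold most of the RNA of such neurons, lie outside the dissected tissue, while monoamine oxidases are also made by resident neurons and glia.

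Some related enzymes of the pathway are similar enough in sequence that shared reads had to be considered. The coding sequences of Maoa and Maob were 71.3% identical over 1548 aligned bases, and those of Tph2 and its peripheral and pineal relative Tph1 were 69.4% identical over 1339. Tph2 and Th were less alike, 61.6% identical over 1398 aligned bases. The longest identical run was 35 bases for Maoa and Maob, 15 for Tph2 and Tph1, and 13 for Tph2 and Th. For Maoa with Maob and Tph2 with Tph1, the stretches of 90 coding bases that start at these runs are shown, 5′ to 3′. They are where reads of these pairs would be hardest to assign. They were read from GENCODE M21 transcripts, and capitals mark the bases that differ within a pair.
Maoa, coding bases 1165 to 1254: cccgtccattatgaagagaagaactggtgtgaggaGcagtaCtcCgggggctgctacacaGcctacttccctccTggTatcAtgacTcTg
Maob, coding bases 1138 to 1227: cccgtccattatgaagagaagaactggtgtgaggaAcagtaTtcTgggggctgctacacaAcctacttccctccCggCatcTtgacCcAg
Tph2, coding bases 678 to 767: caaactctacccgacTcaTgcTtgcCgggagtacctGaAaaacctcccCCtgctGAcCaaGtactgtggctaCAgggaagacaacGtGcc
Tph1, coding bases 555 to 644: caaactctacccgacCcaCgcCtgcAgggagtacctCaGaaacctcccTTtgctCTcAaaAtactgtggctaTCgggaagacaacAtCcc
Within these stretches Maoa and Maob differed at 9 bases and Tph2 and Tph1 at 16. No other gene of the table had a stretch of at least 100 bases at 90% identity or more with the transcripts used for Tph2, Th, Ddc, Slc18a2 or Maob. For Maoa there were 108 such genes, all matching outside its coding sequence, and how reads from that stretch were assigned is not given in the sources used here. In M21 an antisense model overlaps Ddc (1700042O10Rik) and another overlaps Slc18a2 (Gm29261). Neither antisense model is a row of the table, and no strand setting is given in the sources used here.

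Libraries held 17628922 to 27263393 counts. Every marker of the hippocampal neuron list (10 of 10) had at least 10 counts in every sample. Fmr1 itself had 199 to 310 counts in a sample, with no intact gene to set it against. Vehicle A stood apart by genes of other tissues: its pituitary markers summed to 79.0 CPM (counts scaled to 1e6 per library after TMM scaling), against at most 2.07 in any other sample, and its pineal markers to 10.7 CPM. AM6545 E was the next highest for pineal markers, at 2.30 CPM, while the other samples had at most 0.620 CPM. Choroid plexus markers summed to 57.9 CPM in vehicle C and to 4458 CPM in vehicle D, and from 69.5 to 966 CPM in the AM6545 samples.

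The breakdown enzymes were the most abundant of the 6 transcripts, and the entry enzymes the scarcest. Levels were compared between genes as CPM per kilobase of transcript, with the median length of each gene's protein-coding transcripts in M21. Maob had 26.2 ± 3.67 CPM per kb (SD, n = 9). This was above 73.3% of the 15203 genes with at least 1 count in every sample and a length. Maoa followed at 9.02 ± 0.701 CPM per kb (SD, n = 9), above 52.8% of those genes. Ddc, at 4.52 ± 0.921 CPM per kb, and Slc18a2, at 1.99 ± 0.399 CPM per kb (SD, n = 9 each), lay in the middle of the order. Tph2 had 0.768 ± 0.136 CPM per kb and Th 0.656 ± 0.140 CPM per kb (SD, n = 9 each), above 17.2% and 15.7% of genes.

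The order was the same in every sample down to the hydroxylases. Maob exceeded Maoa in 9 of 9 samples, by 2.26 to 3.52 times. Maoa exceeded Ddc, Ddc exceeded Slc18a2, and Slc18a2 exceeded Tph2 in 9 of 9 samples each, and the ranges of these neighbours did not overlap. Between Tph2 and Th the order was not fixed, since Tph2 was the higher in 6 of 9 samples and the ranges overlapped. The step sizes depend on the transcript lengths, which ran from 1829 bases for Th to 4167 for Maoa.

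**Figure D1:**
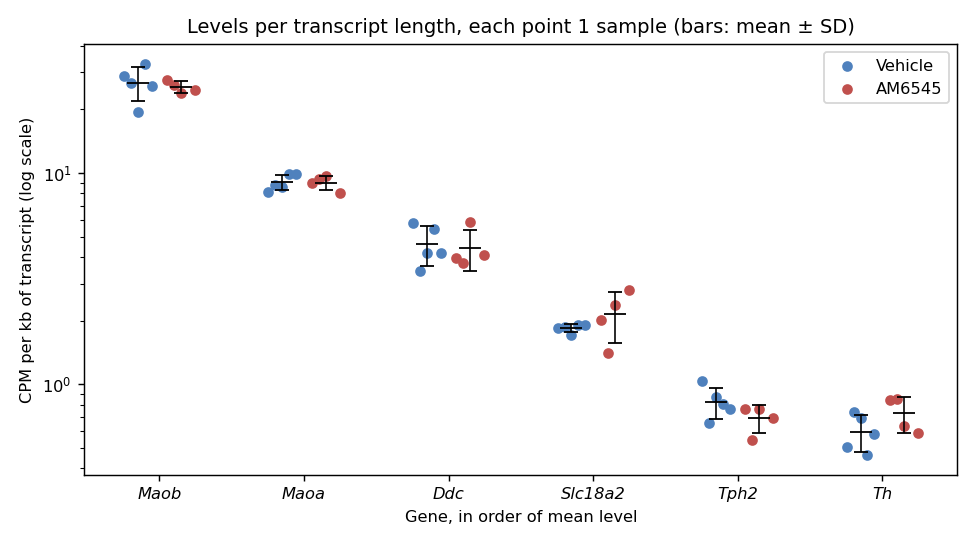
Level of each gene per kilobase of transcript (CPM per kb, log axis), with 1 point for each of 5 vehicle and 4 AM6545 samples and bars for the group mean ± SD. Maob lies highest, at 26.2 CPM per kb over the 9 samples, the ranges of neighbours do not overlap down to Tph2, and Tph2 and Th overlap.

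Tph2 (ENSMUSG00000006764.9), the rate-limiting enzyme of serotonin synthesis in neurons, was present in every library at 34 to 51 counts. In AM6545 A, B, C and E its level was 2.02, 1.44, 2.02 and 1.83 CPM. In vehicle A to E it was 2.72, 1.72, 2.28, 2.11 and 2.01 CPM. The highest sample was vehicle A and the lowest AM6545 B, and the groups overlapped. Means were 1.83 ± 0.272 CPM (SD, n = 4) with AM6545 and 2.17 ± 0.368 CPM (SD, n = 5) with vehicle. The log2 fold change was -0.24 (SE 0.21, 95% interval -0.69 to 0.21, edgeR quasi-likelihood adjusted p = 0.742), and all 4 AM6545 samples lay below the vehicle mean. Its coefficient of variation over the 9 samples was 17.8%, where Poisson counting error alone gives 14.9%, so at this depth little of the spread between samples can be told from counting.

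Tph1, the hydroxylase of pineal gland and gut, behaved differently from Tph2 in 2 libraries. It had 128 counts in vehicle A and 37 in AM6545 E, and 4 to 7 counts in each of the other 7 samples. Tph1 thus made up 73.1% of the counts of both hydroxylases in vehicle A (95% Wilson interval 66.1 to 79.2) and 44.6% in AM6545 E (34.4 to 55.3), intervals that cover counting error only. In the other samples its share ran from 7.41% to 15.0%. Tph2 in those libraries was 2.72 CPM, the highest of the 9 samples, in vehicle A and 1.83 CPM in AM6545 E. The 2 libraries with many Tph1 counts are also the highest for summed pineal markers, a list that includes Tph1. Its other members were split. The photoreceptor and pineal factor Crx had 19 counts in vehicle A and 5 in AM6545 E, against at most 1 elsewhere, and Pde6b had 21 and 11, against at most 7. Bsx had 8 and 3 counts in the same libraries, and at most 1 elsewhere. Lhx4 had 8 counts in vehicle A and at most 1 elsewhere, while the melatonin enzymes Aanat and Asmt had at most 4 and 2 counts in any sample. Gngt1, the remaining member, did not add to the pineal sum of vehicle A. Of the 8 pineal genes listed, 0 had at least 10 counts in every sample and 5, Gngt1 among them, never exceeded 10. The part of pineal tissue in the Tph1 level was not tested, and in bulk samples fewer cells of a type and less RNA per cell cannot be told apart. With both libraries left out the log2 fold change of Tph2 was -0.15, as it was without vehicle A alone, and without AM6545 B it was -0.14.

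**Figure D2:**
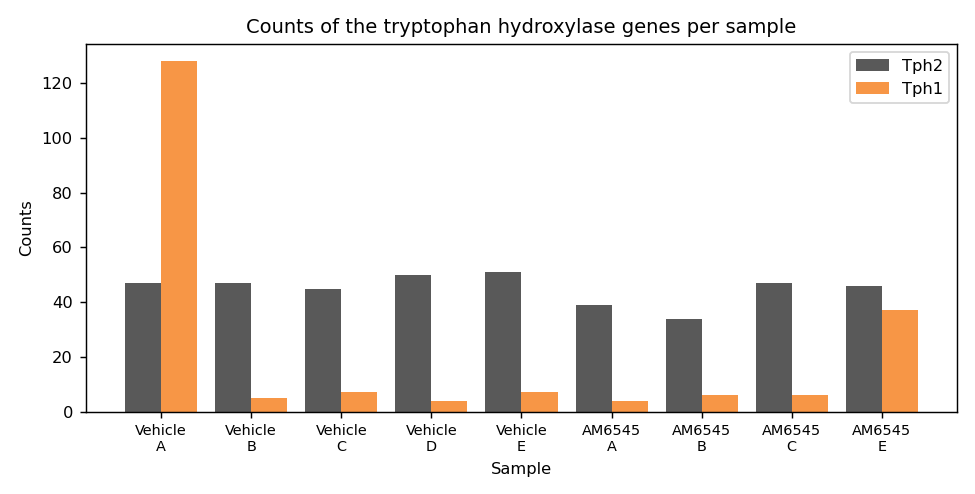
Counts of Tph2 (grey) and Tph1 (orange) in each of the 9 samples. Tph2 lies between 34 and 51 counts throughout, while Tph1 reaches 128 counts in vehicle A and 37 in AM6545 E and is at most 7 elsewhere.

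Th (ENSMUSG00000000214.12), the rate-limiting enzyme of dopamine and noradrenaline synthesis, was the scarcest of the 6, at 16 to 37 counts. Its level was 1.55, 1.57, 1.16 and 1.07 CPM in AM6545 A, B, C and E. Vehicle A to E had 0.924, 1.35, 1.27, 0.846 and 1.06 CPM. AM6545 A and B were above every vehicle sample, AM6545 C and E were inside the vehicle range. Means were 1.34 ± 0.258 CPM (SD, n = 4) against 1.09 ± 0.218 CPM (SD, n = 5). The difference was within the spread between samples, at a log2 fold change of 0.28 (SE 0.25, 95% interval -0.25 to 0.82, edgeR adjusted p = 0.746). Counting error alone gives a coefficient of variation of 19.1%, close to the 21.3% observed.

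Ddc (ENSMUSG00000020182.17), which decarboxylates both 5-hydroxytryptophan and L-DOPA, had 148 to 265 counts and varied beyond counting error. Levels were 7.65, 7.24, 11.4 and 7.91 CPM in AM6545 A, B, C and E, and 11.2, 6.70, 8.07, 10.6 and 8.15 CPM in vehicle A to E. AM6545 C, vehicle A and vehicle D were high, and the other 6 samples lay between 6.70 and 8.15 CPM, so the high samples came from both groups. The coefficient of variation was 20.4%, against 7.12% from counting error. Means were 8.54 ± 1.91 CPM (SD, n = 4) and 8.94 ± 1.88 CPM (SD, n = 5), and the log2 fold change was -0.06 (SE 0.18, 95% interval -0.44 to 0.32, edgeR adjusted p = 0.938). The direction turned when AM6545 B, vehicle A or vehicle D was left out.

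The ratio of Ddc to Th is limited by the counting error of Th, which had 16 to 37 counts. Counting error alone gives Th a spread of 19.1%, close to the 21.3% observed. The ratios thus cannot show whether the decarboxylase followed tyrosine hydroxylase across samples. The ratio of Ddc to Th per transcript length ran from 4.36 in AM6545 B to 11.8 in vehicle D. It was also high in vehicle A, at 11.4, and low in AM6545 A, at 4.66, and vehicle B, at 4.67. Vehicle A and D, the samples with the lowest Th, were also the highest for summed ependymal markers, at 28.2 and 22.7 CPM (6 listed, 5 with at least 10 counts in every sample, none at 0 in every sample; 11.1 to 13.2 CPM over the AM6545 samples and 11.5 to 28.2 over vehicle). Vehicle E had a like ependymal sum, 21.2 CPM, with 1.06 CPM of Th and a ratio of 7.24. The part of such cells in these ratios was not tested. Th had a Pearson r of -0.79 with the ependymal sum and of -0.81 with the summed serotonergic list (log2 levels, n = 9). Its r was above 0 with the neuronal, dopaminergic and mast cell lists.

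Slc18a2 (ENSMUSG00000025094.9), the vesicular monoamine transporter of neurons, was even among vehicle samples and uneven among treated ones. In AM6545 A, B, C and E it had 7.65, 5.34, 9.01 and 10.6 CPM. In vehicle A to E it had 6.99, 7.10, 6.50, 7.23 and 7.20 CPM. AM6545 A, C and E were above the whole vehicle range and AM6545 B was below it. AM6545 A, with 148 counts, exceeded the highest vehicle sample by less than its counting error. The SD was 2.23 CPM around a mean of 8.15 with AM6545 (n = 4) and 0.297 CPM around 7.00 with vehicle (n = 5). Poisson counting error alone gives a coefficient of variation of 7.6%, against 20.1% over the 9 samples. The vehicle samples thus varied less than counting error alone gives, and their narrow range understates the spread to be expected. The difference in spread between the groups was not tested. The log2 fold change was 0.22 (SE 0.17, 95% interval -0.14 to 0.58, edgeR adjusted p = 0.717).

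Single libraries decided the size of the Slc18a2 difference. Without AM6545 B the log2 fold change was 0.38 (edgeR adjusted p = 0.92), and the mean difference was 1.15 CPM with all samples (two-sided exact permutation p = 0.294) and 2.09 CPM without that library (exact permutation p = 0.0179, the smallest p that this reduced set can give). Without AM6545 E the log2 fold change was 0.06. Over all alternatives the adjusted p ran from 0.627 to 0.923.

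The samples with the most Slc18a2 were also those with the most Kit, a receptor of mast cells that hippocampal neurons also make. Kit was at 112 CPM in AM6545 E, 103 in AM6545 C and 84.4 in AM6545 A, and between 65.8 and 81.2 CPM in the vehicle samples. Kit was 70.5 CPM in AM6545 B, the sample with the least Slc18a2. Of the 8 mast cell markers, 1 had at least 10 counts in every sample, 5 never exceeded 10 counts, and Tpsab1, a mast cell tryptase gene, was at 0 in all 9. Kit carried nearly all of the summed list, which was 71.4 to 112 CPM in AM6545 samples and 65.9 to 82.7 CPM in vehicle samples. The other 7 genes of the list did not follow Slc18a2: together they had 39 counts in vehicle B and 21 in AM6545 B, the sample with the least Slc18a2, but 1 count in AM6545 C and 10 in AM6545 E. The mast cell protease gene Cpa3 had 14 counts in vehicle B, 3 in AM6545 B and at most 1 elsewhere.

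Maoa (ENSMUSG00000025037.7), the oxidase that prefers serotonin and noradrenaline, was the steadiest member. It had 37.3, 38.9, 40.3 and 33.5 CPM in AM6545 A, B, C and E, and 34.0, 36.4, 35.7, 41.0 and 41.2 CPM in vehicle A to E. High and low samples occurred in both groups, and the whole range was 1.23-fold. Means were 37.5 ± 2.93 CPM (SD, n = 4) and 37.7 ± 3.26 CPM (SD, n = 5). The log2 fold change was -0.01 (SE 0.10, 95% interval -0.22 to 0.20, edgeR adjusted p = 0.985), and its sign changed with DESeq2 size factors.

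Maob (ENSMUSG00000040147.15), the oxidase of astrocytes and serotonergic neurons, lies next to Maoa on chromosome X in the opposite direction. Its levels were 66.2, 62.9, 57.6 and 59.7 CPM in AM6545 A, B, C and E, and 69.3, 64.3, 46.8, 79.4 and 62.3 CPM in vehicle A to E. The highest and the lowest sample were both vehicle, D and C, and all treated samples lay between them. Means were 61.6 ± 3.78 CPM (SD, n = 4) and 64.4 ± 11.9 CPM (SD, n = 5), and the log2 fold change was -0.07 (SE 0.13, 95% interval -0.34 to 0.21, edgeR adjusted p = 0.896). The direction turned without vehicle D, to 0.02. The spread of 14.0% over the 9 samples compares with 2.64% from counting error and with 7.77% for Maoa.

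**Figure D3:**
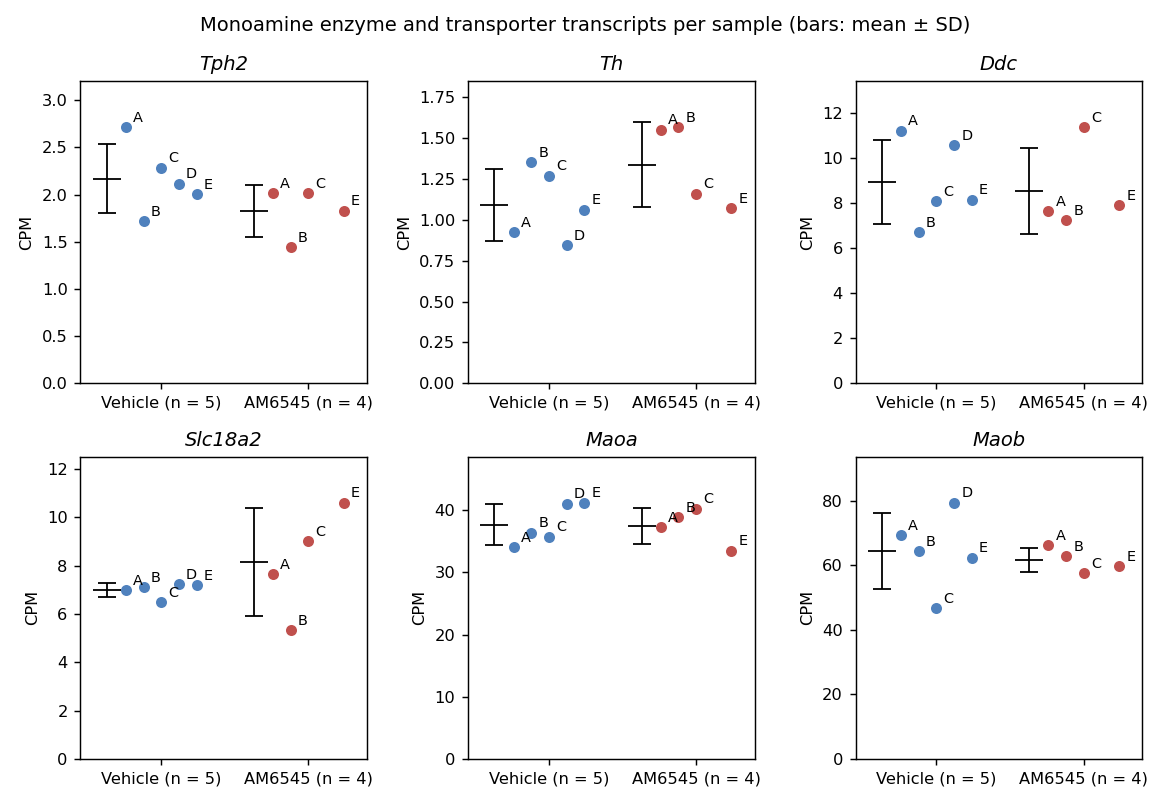
CPM of each of the 6 genes in 5 vehicle and 4 AM6545 samples, with 1 lettered point per sample and bars for the group mean ± SD. The groups overlap in every panel. Slc18a2 has an SD of 0.297 CPM in vehicle, less than counting error alone gives, and 2.23 CPM in AM6545 samples. Maob is lowest in vehicle C and highest in vehicle D.

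Vehicle C, the sample with the least Maob, was also lowest for the summed markers of several cell types other than neurons. Its astrocyte markers summed to 3826 CPM, against 4289 to 5789 in the other vehicle samples and 4811 to 5048 in AM6545 samples. Its endothelial markers summed to 18.6 CPM, against 37.6 to 48.4 CPM and 24.4 to 36.3 CPM. The microglial, oligodendrocyte and choroid plexus sums were lowest in vehicle C as well, at 564, 10736 and 57.9 CPM. The ependymal, mast cell, pineal and pituitary sums were not. Without Slco1a4, the most abundant endothelial gene, the endothelial sum was still lowest in vehicle C, as was the astrocyte sum without Aldoc, at 2322 CPM. The neuronal markers did not show the reverse: Snap25 was highest in vehicle C, at 5304 CPM, but the other 9 genes summed to 1749 CPM there, the second lowest of the 9 samples. Vehicle D, with the most Maob, had the highest choroid plexus sum. Its endothelial sum, 48.4 CPM, was the highest through Slco1a4 at 17.7 CPM, and without that gene vehicle D, at 30.8 CPM, was below vehicle B and E. All 10 astrocyte and 8 of 10 endothelial markers had at least 10 counts in every sample, and none was at 0 in every sample. The part of these cells in the Maob level was not tested. Maoa in vehicle C and D was 35.7 and 41.0 CPM, so the ratio of Maoa to Maob per length was 0.442 in vehicle C and 0.299 in vehicle D. Group means of that ratio were 0.353 ± 0.0376 (SD, n = 4) with AM6545 and 0.347 ± 0.0651 (SD, n = 5) with vehicle.

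**Figure D4:**
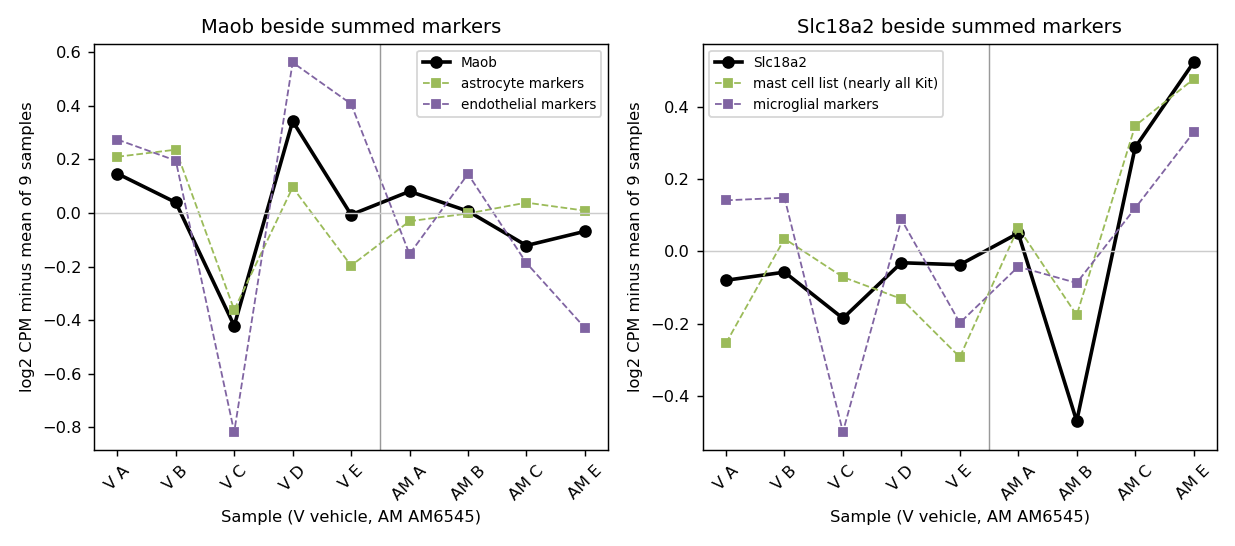
Maob (left) and Slc18a2 (right) in each sample beside summed marker genes, as log2 CPM minus the mean of the 9 samples. Maob and the astrocyte and endothelial sums are lowest in vehicle C, as are the microglial, oligodendrocyte and choroid plexus sums. Slc18a2 and the mast cell list, nearly all Kit, are highest in AM6545 E and C.

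Transcripts that define monoaminergic cell bodies were at or near 0, in the same libraries that held Tph2, Th, Ddc and Slc18a2. Of the serotonergic markers, the transcription factor Fev had at most 1 count, the serotonin transporter Slc6a4 at most 5 and Lmx1b at most 4 in any sample. The dopamine transporter Slc6a3 had at most 10 counts and the midbrain factor Pitx3 at most 2. Of the noradrenergic markers, Phox2a and Hand2 were at 0 in all 9 samples, Slc6a2 had at most 1 count, and Dbh, which turns dopamine into noradrenaline, had 8 to 23. A count of 0 in a sample allows a level of up to 0.110 to 0.170 CPM, taken as 3 counts. Tph2, at 1.44 CPM or more, exceeded that limit in every sample. The summed serotonergic list was 4.70 to 7.95 CPM with AM6545 and 5.82 to 7.57 CPM with vehicle, most of it Pou3f2, which other neurons also make.

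For each of the 6 genes, the tested genes with the most similar profile over the 9 samples were found among 14511 others, by Pearson correlation of log2 CPM. Tph2 was most like Mrpl32, a mitochondrial ribosomal protein (r = 0.96), and Arpc4, an actin-nucleating subunit (r = 0.95). Th was most like the nuclear receptor Nr1h2 (r = 0.99) and the sphingosine kinase Sphk2 (r = 0.97). Ddc was most like Gins1, a DNA replication factor (r = 0.96), and Nkain3 (r = 0.93). Slc18a2 was most like the peptidase Trhde (r = 0.97) and the protocadherin Pcdh20 (r = 0.95). Maoa was most like the transcription factor Gtf2b (r = 0.95) and Pdhb, a pyruvate dehydrogenase subunit (r = 0.94). Maob was most like ezrin, Ezr (r = 0.98), and the peroxisomal lyase Hacl1 (r = 0.96). These are the highest of many values over 9 points that share library composition, and none of the 6 genes was among the nearest of another.

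No member passed the test for AM6545 against vehicle. All 6 passed the count filter, and by edgeR's quasi-likelihood test 0 of them fell below an adjusted p of 0.05, as for 0% of all 14512 genes tested. With an unadjusted p under 0.05 there were 0 members, where 7.21% of all genes had such a value (3.03% higher and 4.18% lower). The CPM ranges of the groups overlapped for all 6, and did not overlap for 1.45% of all genes (0.579% higher and 0.868% lower). With TMM scaling 2 members were higher (Th and Slc18a2) and 4 lower, with a median log2 fold change of -0.03 beside -0.01 for all genes. DESeq2 size factors turned this to 3 and 3, and leaving out vehicle D to 5 higher and 1 lower. The widest interval was that of Th, which reached 0.82 on the log2 scale, and the narrowest that of Maoa, from -0.22 to 0.20. A missed threshold does not show that the groups were alike within these intervals.

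Two-sided exact permutation tests of the difference in mean CPM, over samples, gave no p under 0.05 either. The smallest was 0.167 for Th, for a mean difference of 0.246 CPM (3 of 4 AM6545 samples above the vehicle mean). The p was 0.222 for Tph2, 0.651 for Maob, 0.802 for Ddc and 0.929 for Maoa by the same exact test.

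The wider pathway was read from 30 further genes in 5 lists, 21 of which passed the count filter. Of these 21, 9 were higher and 12 lower with AM6545, with a median log2 fold change of -0.05, and 0 passed the adjusted threshold. Amino acid entry was measured by Slc7a5 and Slc3a2, the subunits of the carrier that brings tryptophan and L-DOPA across the blood-brain barrier. Both values were above 0, with log2 fold changes of 0.15 (SE 0.14) and 0.09 (SE 0.13). Among other transporters, the organic cation carrier Slc22a2 had the highest value of the pathway, 0.47 (SE 0.35), which rested on AM6545 E and was -0.02 without it. Of the 8 other breakdown genes, 5 were higher and 3 lower, with the aldehyde dehydrogenase Aldh2 at 0.12 (SE 0.16, -0.01 without AM6545 B).

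Tph2 and Th need tetrahydrobiopterin, and the genes that make, recycle or support the use of this cofactor formed a list of their own. All 6 tested genes of that list had negative values, where 7516 of all 14512 genes tested were lower. The median log2 fold change was -0.23, and 0 of 6 passed the adjusted threshold. With limma-voom, with the title letter as a replicate block, or without AM6545 E, 1 was higher and 5 lower. Vehicle A was the highest of all 9 samples for Gch1, Pts, Qdpr, Pcbd1 and Dnajc12. Without it, 2 were higher and 4 lower and the median was -0.08; with the trend of each sample with transcript length removed, 2 were higher and 4 lower as well. Gch1, the first enzyme of the cofactor route, had the lowest value, -0.45 (SE 0.32), and was -0.06 without vehicle A.

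Pts, the second enzyme of that route, was the pathway gene whose groups did not overlap. It had 44.3, 39.7, 42.1 and 45.4 CPM in AM6545 A, B, C and E, and 63.0, 49.1, 56.6, 52.1 and 46.2 CPM in vehicle A to E. All 4 treated samples lay below all 5 vehicle samples, as for 0.868% of all genes tested. The log2 fold change was -0.31 (SE 0.10, edgeR unadjusted p = 0.0087, adjusted p = 0.653), and over all alternatives it ran from -0.36 to -0.20 with an adjusted p of 0.324 to 0.92. Hnmt, which inactivates histamine, was the other gene with an unadjusted p under 0.05, in a list of 21 where 2 were lower at that level against 4.18% of all genes. Its levels were 40.1, 38.0, 45.2 and 47.3 CPM in AM6545 A, B, C and E, and 51.6, 45.6, 64.4, 52.5 and 49.6 CPM in vehicle A to E. AM6545 E was above the lowest vehicle sample, B, and the other 3 treated samples were below it. The log2 fold change of Hnmt was -0.30 (SE 0.11, edgeR unadjusted p = 0.0165, adjusted p = 0.653). Hdc, which makes histamine, had -0.43 (SE 0.26, edgeR adjusted p = 0.665).

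**Figure D5:**
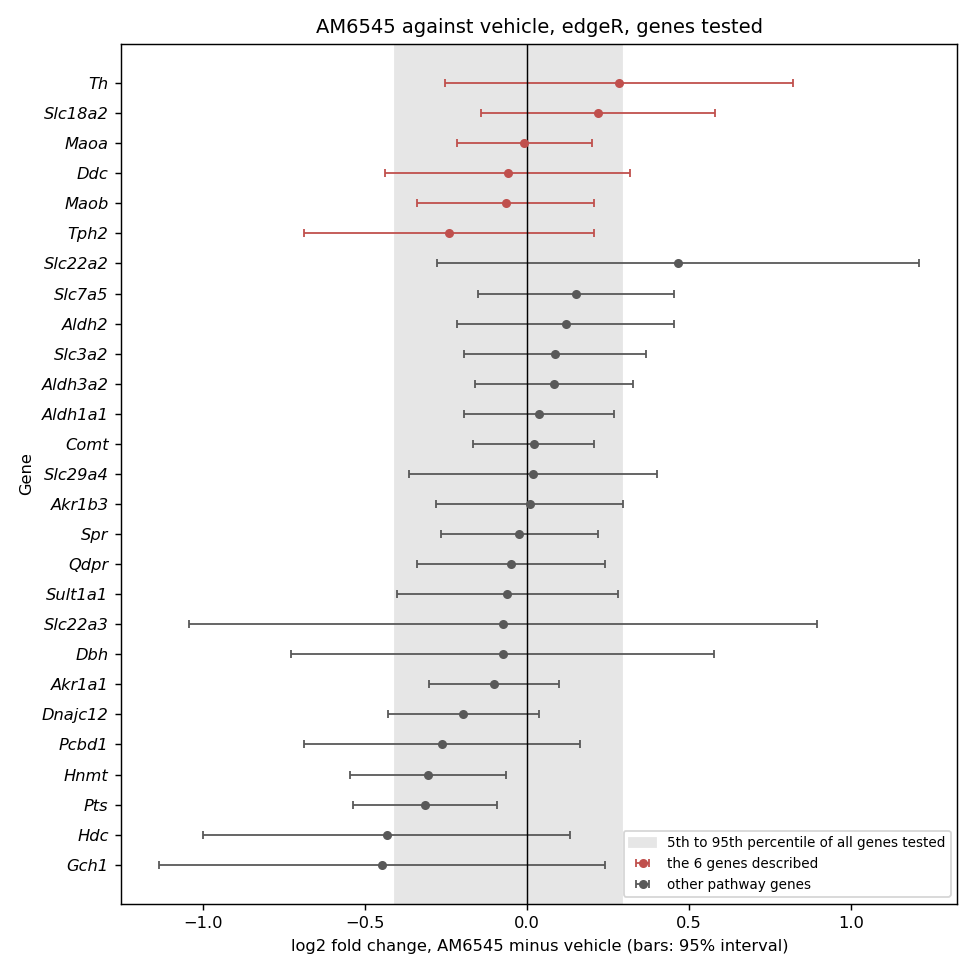
Log2 fold change of AM6545 minus vehicle with its 95% interval for the 6 genes described (red) and 21 other tested pathway genes (grey), beside the 5th to 95th percentile of all 14512 genes tested (shaded). All 6 red intervals include 0, and Pts and Hnmt are the genes whose intervals lie below 0.

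The other 9 pathway genes were under the count filter, and the reuptake transporters of dopamine, serotonin and noradrenaline were among them. The highest count in any sample was 10 for Slc6a3, 5 for Slc6a4 and 1 for Slc6a2. The low-affinity carrier Slc29a4, named after its values were seen, was tested, with 433 to 1140 counts in a sample, and its log2 fold change was 0.02 (SE 0.18, edgeR adjusted p = 0.983). Slc18a1, the vesicular transporter of endocrine cells, reached 19 counts, where Slc18a2 had at least 121 in every sample. Gchfr reached 15 counts, Pnmt 7, Aanat 4 and Asmt 2, and Tph1 the 128 counts of vehicle A.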

How the data were processed

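RNA of 9 samples was measured, with libraries made by a low-input SMARTer protocol for a NovaSeq instrument, per the labels' protocols. The deposited values are expected counts per gene, estimated by the authors and not scaled between samples, as the values show. The submitters' processing notes name Salmon 1.3, DESeq2 1.30 and the builds GRCm39 and mm10 without their roles, and the annotation and strand setting are not given in the sources used here. Symbols were matched by identifier without version for 22155 of 22255 rows, and 22244 versions differ from M21, so M21 gave symbols, lengths and sequences only. Counts were rounded, filtered with filterByExpr (14512 genes kept), scaled with TMM and compared by edgeR 4.0.16 (R 4.3.3, quasi-likelihood F-test, Benjamini-Hochberg threshold 0.05, checked on simulated data), with exact permutation tests of single levels. Nothing in the labels says whether samples are separate animals, so p-values measure the spread between these samples, which may be technical. All 36 pairs of libraries differed beyond sampling noise (chi-square over degrees of freedom of 10.44 or more). Totals ran from 17628922 to 27263393 counts, and intervals on shares cover counting error only. Alternatives used DESeq2 1.42.0, limma 3.58.1, other size factors and filters, each sample left out, and, added after seeing the data, 2 further settings and the same runs for the named pathway genes. Similar sequences were found with blastn 2.17.0. The members, lists and the naming rule were chosen with earlier results of these data known. Named were all members, pathway genes with an unadjusted p under 0.05, the 3 highest and 3 lowest values, those under the filter by their highest count, and the 2 genes most like each member.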

Additional observations from a re-analysis of the deposited data

Results flagged for a closer look

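Among 62 groups of values from 31 genes, 7 held a sample far from the others of its group, where chance flags about 3.1. Of the members, Ddc was at 11.4 CPM in AM6545 C, where the other AM6545 samples had 7.24 to 7.91 CPM. Tph1 was at 7.40 CPM in vehicle A, where the rest of its group had 0.169 to 0.355 CPM, and at 1.47 CPM in AM6545 E, against 0.207 to 0.258 CPM. Gch1 was at 4.80 CPM in vehicle A, against 1.72 to 1.94 CPM. Gchfr, a regulator of the Gch1 enzyme, was at 0.596 CPM in AM6545 E, where the rest had at most 0.339 CPM. Slc22a2 was at 1.95 CPM in AM6545 E, against 0.687 to 0.879 CPM. Slc22a3 was at 0.296 CPM in AM6545 B, the lowest of its group, against 0.636 to 0.687 CPM.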

How the results depend on the processing

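Under 20 alternatives no member's log2 fold change passed the adjusted threshold of 0.05, and Tph2 stayed below 0 and Th and Slc18a2 above 0 in each. The count of genes past that threshold was 0 in all settings but 1: it was 1 without AM6545 A, so leaving out single samples gave 0 to 1. The number of genes with an unadjusted p under 0.05 was 496 without vehicle A, 1848 without AM6545 E and 1823 with limma-voom, against 1047. The replicate block by title letter gave log2 fold changes of 0.007 for Ddc, 0.0248 for Maoa and 0.0338 for Maob, and paired differences of 0.0122, 0.652 and 0.906 CPM. With the group mean of each gene subtracted from its log2 CPM, the deviations of same-lettered samples correlated at -0.018 (A), 0.037 (B), 0.336 (C) and -0.021 (E). This does not show that the letters pair the samples nor that they do not. The block gave 0 genes past the threshold and 759 at an unadjusted p under 0.05. Maoa was 0.0004 with DESeq2 size factors in edgeR (0.0365 CPM) and 0.0008 with DESeq2. With AM6545 E and vehicle A both left out, Ddc was 0.0696 (0.385 CPM) and Maoa 0.0099 (0.234 CPM). Leaving out single samples, log2 fold changes ran from -0.23 to 0.031 for Ddc, -0.0439 to 0.0429 for Maoa, -0.16 to 0.0207 for Maob, -0.02 to 0.63 for Slc22a2 and -0.012 to 0.23 for Aldh2. The differences in CPM ran from -1.34 to 0.172 for Ddc, -1.11 to 1.15 for Maoa, -7.25 to 0.906 for Maob and 0.330 to 2.09 for Slc18a2. Without AM6545 B the unadjusted exact permutation p of Slc18a2 was 0.0179, and its edgeR adjusted p was 0.92. The cause of these changes was not tested. Counting error limits Tph2 and Th most, at 14.9% and 19.1% of their levels.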

Other observations

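Gata3, a transcription factor on the serotonergic list that other cells also make, had 37 counts in AM6545 E and at most 7 in any other sample, beside the 37 Tph1 counts of that library. Pomc had 398 counts and Gh 896 counts in vehicle A, where no other sample had more than 30 and 27. The level of Tph2 was also highest in that library, at 2.72 CPM.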
